A study of Arabidopsis thaliana with 13 samples.

Results

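RNA from Arabidopsis plants harvested at 36 h was set against RNA harvested at 24 h on 2 spotted cDNA arrays, which are 2 of the 13 arrays of a study of daily rhythms and were analysed as a pair. They are the arrays whose labels name these times, and they were chosen by label and not by any measured value. On the first, 36 h RNA was in channel 1 and 24 h RNA in channel 2, and no light condition is stated. On the second, called the dark array here, 24 h RNA was in channel 1 and 36 h RNA in channel 2, and both times are marked as dark. Hours of light, temperature, strain, age and tissue are not stated for either. Each condition has 1 array, so neither has a replicate of its own, and nothing in the labels says whether the RNA of the arrays came from separate plants. The p-values and standard errors below therefore rest on repeat arrays of 6 h, 12 h and 18 h against 0 h. Their spread may be technical, and the gap between the 2 arrays of the pair does not enter it.

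A plant kept without light runs out of the sugar that photosynthesis supplies, and its cells turn to protein and lipid as fuel. Leucine, isoleucine and valine are then broken down in mitochondria, their electrons entering the respiratory chain through a dedicated flavoprotein route, while autophagy delivers cell contents to the vacuole. Transcripts for carbon fixation and other chloroplast functions are known to be lower in such leaves, and many of the same genes also cycle over the day.

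Each value is a log2 ratio of 36 h over 24 h after subtraction of the array's median, so that 1 means 2-fold higher at 36 h and -1 means 2-fold lower. Whether the deposited ratios are channel 2 over channel 1 is not stated. That reading is taken here and is likely rather than settled, and the opposite reading turns every sign in the text. Its basis includes higher dark-induced genes and lower Calvin cycle genes on the dark array, so the directions of those lists are no independent result. The opposite channel orders do settle one point: once each array was turned by its own label, the arrays ran the same way.

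Ratios were present for 12795 features on the array without a stated light condition and for 12755 on the dark array. The SD was 0.858 and 0.825. The bulk of the values was wider on the first array, with a median absolute deviation of 0.522 against 0.427. The features came down to 11292 targets, of which 3689 are named genes and 582 of these carry a symbol or a protein name in the gene table. A total of 11246 targets had a value on both arrays. Between the arrays, Pearson's r across these targets was 0.708 and Spearman's rho 0.655, given as a description because targets of an array share its RNA, its dyes and its hybridisation. For comparison, r ran from -0.050 to 0.571 between arrays of 12 h against 0 h, was 0.405 between those of 6 h against 0 h and was 0.126 between those of 18 h against 0 h. The sign was the same on both arrays for 8387 targets (74.6%), for 2736 of 3686 named genes (74.2%) and for 455 of 581 genes with a symbol or name (78.3%).

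**Figure D1:**
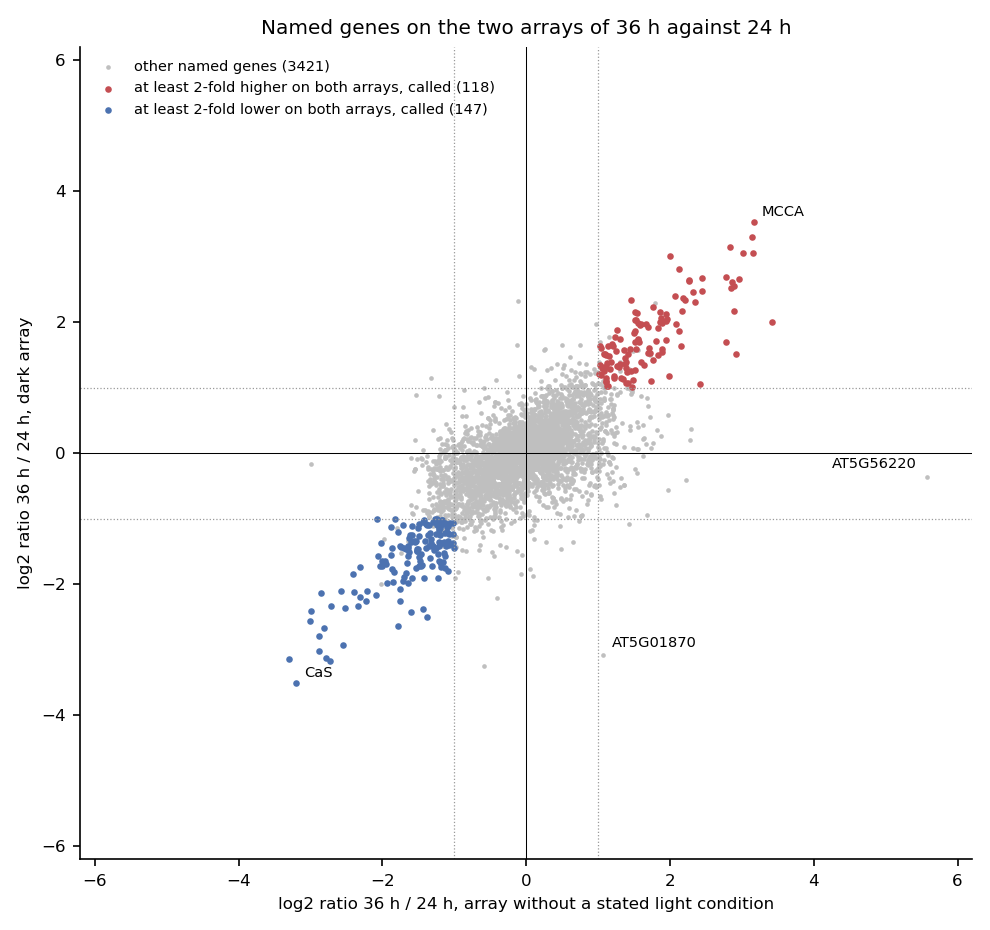
Log2 ratio of 36 h over 24 h on the array without a stated light condition (horizontal axis) against the dark array (vertical axis), 1 point per named gene on both arrays (3686), with dotted lines at 2-fold. Coloured points were at least 2-fold the same way on both arrays and called, 118 higher and 147 lower, from MCCA at 3.16 and 3.52 to CaS at -3.20 and -3.52, while AT5G56220 (5.58 and -0.36) and AT5G01870 (1.07 and -3.09) lie far from the diagonal.

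A gene was called where the mean of the pair passed an adjusted p of 0.05 in a limma fit over all 13 arrays, and because the channel orders are opposite, a dye effect of a feature cancels in that mean. Of 11244 targets tested, 1542 were called (13.7%), 649 higher (5.77%) and 893 lower (7.94%). An unadjusted p under 0.05 was reached by 29.2% of targets. Among named genes 434 were called, 188 higher and 246 lower. The count rests on having both arrays: without the dark array 177 targets were called, and without the other array 245.

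At least 2-fold higher on both arrays were 517 targets (4.6%), 135 named genes (3.66%) and 27 genes with a symbol or name (4.65%). At least 2-fold lower on both were 651 targets (5.79%), 164 named genes (4.45%) and 47 genes with a symbol or name (8.09%). Without centring, the named genes numbered 151 higher and 136 lower, so the balance between directions depends on centring. Of these genes with a symbol or name, 65 were also called, 24 higher and 41 lower, and they are described below by function. For these 65 the median size of the difference between arrays was 0.21 and the largest was 0.86 on the log2 scale. Their choice required a change the same way on both arrays, so small differences are no separate evidence of agreement. As another measure, the SD of the difference was 0.636 over all targets and 0.504 over genes with a symbol or name. In 25 of the 65 the value averages several features, and in 0 of the 25 did features point opposite ways. Just inside the 2-fold limit were VPS2.1 (-1.17 and -1.01) and ACS (-1.02 and -1.06). Just outside it were UGT84A3 (1.40 and 0.99) and GID1C, which fell short of 1 before rounding on the array without a stated light condition and stood at 1.08 on the dark array. In pairs of values here and below, the array without a stated light condition comes first and the dark array second.

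**Figure D2:**
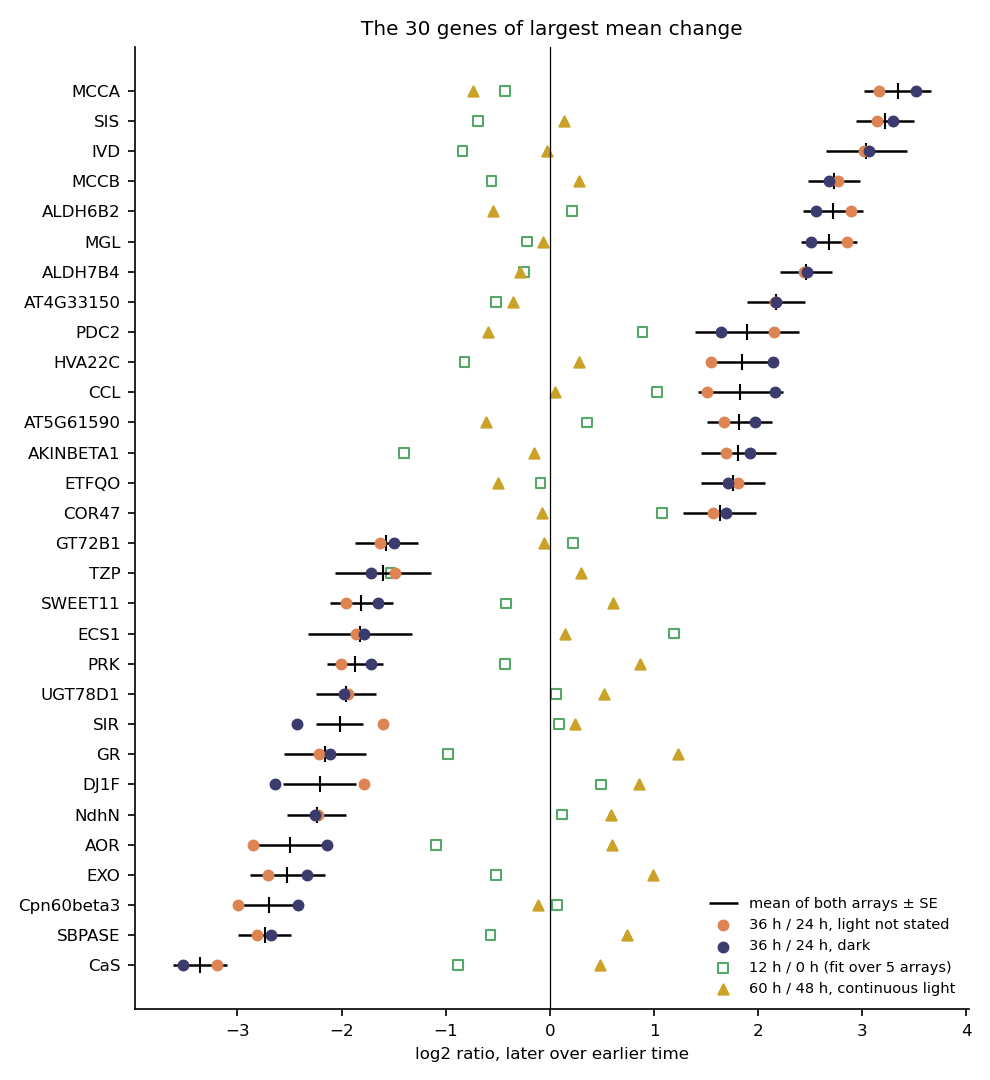
Log2 ratio of 36 h over 24 h on each array (points) and the mean of both with its standard error (bars) for the 15 genes of largest mean rise and the 15 of largest mean fall, with 12 h over 0 h (squares, fit over 5 arrays) and 60 h over 48 h (triangles, 1 array). Both points of a gene lie on the same side of 0 because the choice of genes required it. The means run from 3.34 for MCCA to -3.36 for CaS.

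Genes for the breakdown of leucine and valine took 5 of the 15 largest rises among called genes with a symbol or name. MCCA (AT1G03090), the biotin-bearing subunit of methylcrotonyl-CoA carboxylase in leucine breakdown, read 3.16 and 3.52. Its mean over the 2 arrays was 3.34 ± 0.32 (SE from the limma fit), which is 10.2-fold (adjusted p = 0.000749). MCCB (AT4G34030), the other subunit of that enzyme, read 2.77 and 2.68, a 6.63-fold rise at the same adjusted p. Both subunits of the enzyme thus rose on both arrays. IVD (AT3G45300), isovaleryl-CoA dehydrogenase of the step before, read 3.02 and 3.06, a mean of 3.04 ± 0.39 (adjusted p = 0.00188). ALDH6B2 (AT2G14170), which acts in valine breakdown, read 2.89 and 2.56, a mean of 2.72 ± 0.29 (adjusted p = 0.000843). Its 4 features ranged from 1.92 to 3.38. ETFQO (AT2G43400), which passes electrons from IVD to ubiquinone, rose 3.39-fold, with 1.81 and 1.71 (adjusted p = 0.00766).

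Of the 16 genes listed for branched-chain amino acid breakdown 8 were measured, and 6 of the 8 were called higher and 0 lower. Over all targets 5.77% were called higher. The list had a median of 2.73 against 0.02 over all targets. This list and those below were chosen with earlier results of these data known, so their counts are a description. The sixth was AT1G21400, at 2.83 and 3.14 (mean 2.99 ± 0.29, adjusted p = 0.000749). The other members did not pass. ETFALPHA, a subunit of the flavoprotein that feeds ETFQO, read 0.80 and 0.63 (adjusted p = 0.101). AT2G26800 read -0.60 and -0.05 (adjusted p = 0.578).

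Single genes of methionine and lysine breakdown were also among the largest rises. MGL (AT1G64660), methionine gamma-lyase, read 2.85 and 2.51, a mean of 2.68 ± 0.27 (6.42-fold, adjusted p = 0.000787), with its 3 features between 1.38 and 3.78. AT4G33150, the lysine-degrading enzyme LKR/SDH, read 2.16 and 2.17, a mean of 2.17 ± 0.28 (4.49-fold, adjusted p = 0.00211). ALDH7B4 (AT1G54100), an aldehyde dehydrogenase, read 2.44 and 2.47, a mean of 2.46 ± 0.25 (adjusted p = 0.000787). The arrays differed by 0.01 for AT4G33150 and by 0.03 for ALDH7B4.

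Some other genes known to be induced by dark or sugar starvation rose, by varying amounts, and others were not called. SIS (AT5G02020), named for its response to salt, read 3.14 and 3.29, a mean of 3.22 ± 0.28 (9.30-fold, adjusted p = 0.000749). AKINBETA1 (AT5G21170), a beta subunit of SnRK1, the kinase that senses low energy, read 1.69 and 1.92, a mean of 1.81 ± 0.36 (adjusted p = 0.0118). PPDK (AT4G15530), pyruvate orthophosphate dikinase, rose 2.32-fold with 1.11 and 1.32 (adjusted p = 0.0289). AT4G27450 read 1.95 and 2.12 (adjusted p = 0.0120). With it and AT4G33150, these made 5 called higher and 0 lower among 8 measured of 32 listed. The median was 1.51, and 5.77% of all targets were called higher. The remaining members had smaller ratios: BZIP53, a transcription factor of low-energy responses, at 0.88 and 0.42 (adjusted p = 0.0900), D2HGDH, an enzyme of lysine breakdown, at 0.30 and 0.15, and ICL, isocitrate lyase of the glyoxylate cycle, at -0.03 and -0.41.

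ATG8 proteins coat the growing autophagosome in autophagy, and 3 of their genes rose on both arrays: ATG8E (1.37 and 1.45, adjusted p = 0.0198), ATG8F (1.24 and 1.55, adjusted p = 0.00856) and APG8A (1.11 and 1.49, adjusted p = 0.0106). ATG3, which attaches ATG8 to lipid, rose 2.07-fold with 0.73 and 1.38 (adjusted p = 0.0194). In all, 4 of 7 measured genes of 20 listed were called higher and 0 lower, against 5.77% of all targets called higher. The median was 1.05. ATG8D missed the threshold at 0.96 and 0.81 (adjusted p = 0.0530), APG8H read -0.06 and 0.59, and ATG8C read -1.30 and 0.34. The family therefore did not move as a whole, and its members are alike enough in sequence that spotted cDNA can pick up related transcripts.

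Among the other large rises were genes of fermentation, stress and the plant surface. PDC2 (AT5G54960), pyruvate decarboxylase of ethanol fermentation, read 2.15 and 1.64, a mean of 1.89 ± 0.50 (adjusted p = 0.0363). HVA22C (AT1G69700), of a family first known for its response to abscisic acid, read 1.55 and 2.14 (3.59-fold, adjusted p = 0.00530). DEWAX (AT5G61590), a repressor of wax synthesis genes, read 1.67 and 1.97 (3.53-fold, adjusted p = 0.00633). CCL (AT3G26740), known for an unstable transcript that cycles over the day, read 1.51 and 2.16, a mean of 1.83 ± 0.41 (adjusted p = 0.0195). The 3 features of CCL ranged from 0.58 to 3.67, so its size depends on the feature. COR47 (AT1G20440), a dehydrin that protects cells in cold and drought, read 1.57 and 1.69, a 3.09-fold rise over 5 features (adjusted p = 0.0171).

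COR47 was the 1 gene called of 3 measured among 19 listed for cold and dehydration, against 5.77% of all targets called higher. KIN2 had a larger mean, with 1.80 and 2.29, but also a larger error, 2.04 ± 0.73 (adjusted p = 0.0963). LTI30, another dehydrin, read 0.52 and 0.43. The median of these 3 was 1.63. The remaining genes with a symbol that were called higher and at least 2-fold on both arrays were UGT73B1, a glucosyltransferase, at a mean of 1.47, DER2.1, of the derlin family of the endoplasmic reticulum, at 1.31, OSM34, an osmotin-like protein, at 1.30, SDP1, the lipase that starts oil breakdown, at 1.18, and HON4, a linker histone protein, at 1.09.

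Among histone genes found by name, 2 of 3 were called higher and 0 lower, with a median of 1.04, against 5.77% of all targets called higher. HIS1-3, a linker histone known to respond to drought, read 0.84 and 1.25 (adjusted p = 0.0311). HTB2, a core histone H2B, read -0.53 and 0.01.

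**Figure D3:**
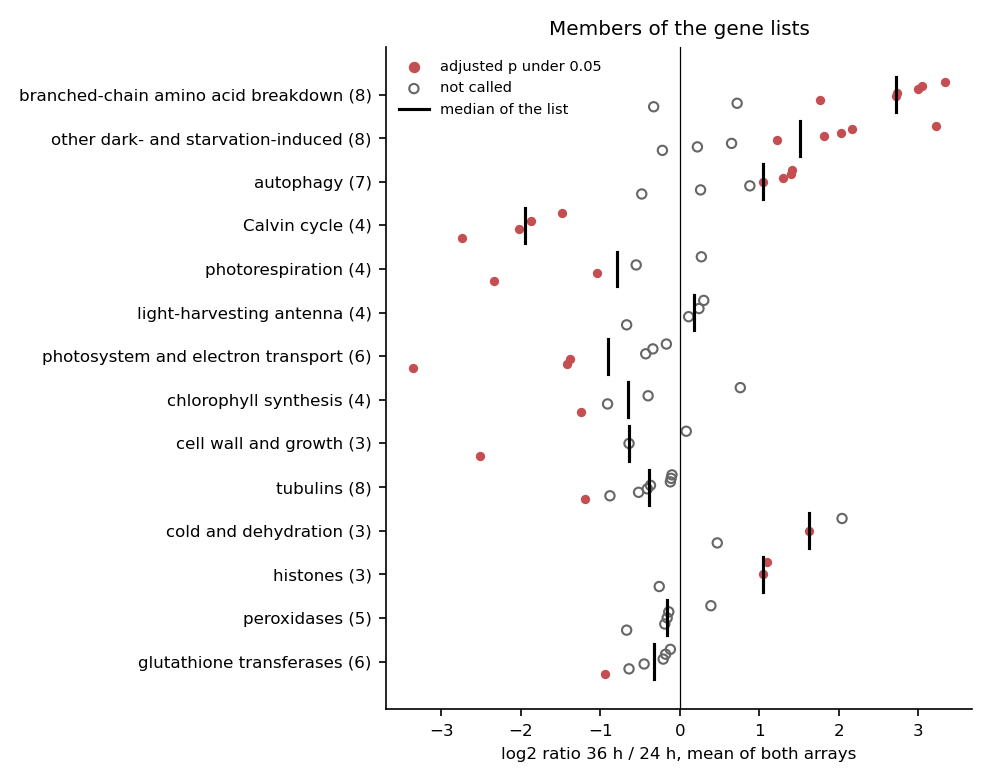
Log2 ratio of 36 h over 24 h, mean of both arrays, for each tested member of the lists with at least 3 such members, 1 line of points per list (number tested in brackets), filled where called and open where not, with a bar at the median. The members for branched-chain amino acid breakdown have a median of 2.73, those of the Calvin cycle -1.94, and the light-harvesting antenna lies around 0 with a median of 0.18.

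Genes for carbon fixation were lower. SBPASE (AT3G55800), sedoheptulose-bisphosphatase of the regenerating arm of the Calvin cycle, read -2.81 and -2.68, a mean of -2.74 ± 0.25 (6.70-fold lower, adjusted p = 0.000749). PRK (AT1G32060), phosphoribulokinase, read -2.01 and -1.72, a mean of -1.87 ± 0.27 over 5 features (adjusted p = 0.00367). RCA (AT2G39730), which keeps Rubisco active, read -1.60 and -1.35, a mean of -1.48 ± 0.36 (adjusted p = 0.0274). All 9 features of RCA were lower, between -2.39 and -1.07. AT1G56190, also on the list, read -2.31 and -1.73 (adjusted p = 0.00240). All 4 measured of the 23 listed were thus called lower and lay past 2-fold on both arrays, with a median of -1.94. Over all targets 7.94% were called lower. The labels name no tissue, and in whole samples fewer cells of a type and less RNA per cell cannot be told apart.

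Photorespiration genes, which recover carbon lost when Rubisco uses oxygen, gave a mixed picture. Of 4 measured of 18 listed, 2 were called lower and 0 higher, with a median of -0.80, against 7.94% of all targets called lower. AT1G11860 read -2.35 and -2.33 (mean -2.34 ± 0.24, adjusted p = 0.000787) and AT1G32470 read -1.18 and -0.91 (adjusted p = 0.0381). HPR, hydroxypyruvate reductase, stood at -0.62 and -0.48 (adjusted p = 0.176), and AT1G80380 at 0.16 and 0.38.

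Genes of the thylakoid membrane differed among themselves. CaS (AT5G23060), the calcium-sensing protein of thylakoids, had the largest fall of any gene with a symbol, at -3.20 and -3.52, a mean of -3.36 ± 0.26 (10.2-fold lower, adjusted p = 0.000749), and its 4 features lay between -4.66 and -2.57. ATPC1, the gamma subunit of the chloroplast ATP synthase, read -1.28 and -1.49 (adjusted p = 0.0160), and PSBY, a small protein of photosystem II, read -1.59 and -1.25 (adjusted p = 0.0221). These 3 were called lower of 6 tested among 34 listed for the photosystems and electron transport, with 0 higher and a median of -0.91. The share of all targets called lower was 7.94%. The other 3 were PSAE-1 (-0.54 and -0.14) and PSAN (-0.50 and -0.36) of photosystem I, and PSBW (-0.43 and 0.09) of photosystem II. PSB27 had a value on the array without a stated light condition alone, 0.61, and was not tested.

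Antenna genes, which encode the chlorophyll-binding proteins that harvest light, showed no call in either direction, at 0 of 4 measured of 20 listed. Over all targets 5.77% were called higher and 7.94% lower, so 0 of 4 does not set the antenna apart. LHB1B2 read -0.02 and 0.61, LHCB4.1 -0.16 and 0.38, LHCB4.2 0.05 and 0.44, and LHCB4.3 -0.82 and -0.51 (adjusted p = 0.170). Their standard errors lay between 0.30 and 0.37, and a call takes a change of several standard errors. AT1G74470, for example, was not called at a mean of -0.91 ± 0.35. Antenna changes well above 0.37 could therefore have been missed.

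The chloroplast NDH complex returns electrons to the plastoquinone pool around photosystem I. Of the 4 genes tested whose symbol starts with Ndh, grouped after their values were seen, 3 were called lower, against 7.94% of all targets. NdhN (AT5G58260) read -2.23 and -2.26, a mean of -2.24 ± 0.28 (4.73-fold lower, adjusted p = 0.00164). NdhL read -1.35 and -1.11 (adjusted p = 0.0237) and NdhU -1.21 and -1.24 (adjusted p = 0.0104). The other gene, NdhS, read 0.43 and 0.23 (adjusted p = 0.348). Other chloroplast genes fell too. Cpn60beta3 (AT5G56500), a chaperonin subunit that folds chloroplast proteins, read -2.99 and -2.42, a mean of -2.70 ± 0.26 (adjusted p = 0.000749). AOR (AT1G23740), which detoxifies reactive carbonyls in chloroplasts, read -2.85 and -2.14 (mean -2.50 ± 0.37, adjusted p = 0.00378). ATAB2, known for its part in making photosystem proteins, read -1.02 and -1.24 (adjusted p = 0.0134).

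In chlorophyll synthesis 1 of 4 measured genes of 18 listed was called lower and 0 higher, with a median of -0.66, against 7.94% of all targets called lower. The called gene was HEME2, uroporphyrinogen decarboxylase, at -1.43 and -1.05 (adjusted p = 0.0227). AT1G74470, geranylgeranyl reductase, read -0.99 and -0.84 (adjusted p = 0.113) and HEMB1, of an early step, -0.49 and -0.31. PORB, which reduces protochlorophyllide in the light, stood on the other side of 0 at 0.74 and 0.77 (adjusted p = 0.143). LIL3:2, a light-harvesting-like protein that anchors geranylgeranyl reductase and was not on the list, fell at -1.36 and -1.42 (adjusted p = 0.00913), with features from -2.04 to -0.40.

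Single genes of sulphur and redox metabolism, for which no list was tested, were also among the falls. SIR (AT5G04590), sulfite reductase, read -1.60 and -2.43, a mean of -2.02 ± 0.23 (4.04-fold lower, adjusted p = 0.00114). CBL, cystathionine beta-lyase of methionine synthesis, read -1.31 and -1.42 (adjusted p = 0.00626). HL, a phosphatase that acts on a by-product of sulphate assimilation, read -1.62 and -1.30 (adjusted p = 0.0118). A methionine synthesis gene was thus lower where MGL of methionine breakdown was higher. GR (AT3G54660), glutathione reductase, read -2.22 and -2.11, a mean of -2.16 ± 0.39 (adjusted p = 0.00861). VTC4, a phosphatase of ascorbate and inositol synthesis, read -1.13 and -1.76 (adjusted p = 0.0184). The cytosolic isocitrate dehydrogenase cICDH, a source of NADPH, read -1.55 and -1.35 (adjusted p = 0.0288).

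Genes of flavonoid synthesis and glucosyl transfer, for which no list was tested, included both falls and rises. UGT78D1 (AT1G30530), which adds rhamnose to flavonols, read -1.94 and -1.98, a mean of -1.96 ± 0.29 (3.89-fold lower, adjusted p = 0.00381). CHIL, a chalcone isomerase-like protein that helps flavonoid synthesis, read -1.23 and -1.90 (adjusted p = 0.00466). GT72B1 (AT4G01070), a glucosyltransferase that conjugates phenolics and foreign compounds, read -1.63 and -1.50 (adjusted p = 0.0101). Over the 13 genes tested whose symbol starts with UGT, grouped after their values were seen, 2 were called higher and 1 lower. The higher ones were UGT73B1 and UGT84A3 (adjusted p = 0.0329), and the lower one was UGT78D1. Of all targets 5.77% were called higher and 7.94% lower, and counts this small do not set the group apart from them.

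Among genes of growth and transport, EXO (AT4G08950), which promotes cell expansion in response to brassinosteroid, read -2.71 and -2.33, a mean of -2.52 ± 0.36 (5.75-fold lower, adjusted p = 0.00311). It was the 1 gene called of 3 measured among 36 listed for cell wall and growth, against 7.94% of all targets called lower. The median of these 3 was -0.64. XTH16, a xyloglucan-modifying enzyme, read -0.87 and -0.42, and COB, needed for oriented cellulose, 0.73 and -0.58. SWEET11 (AT3G48740), which exports sucrose for loading into the phloem, read -1.96 and -1.65, a mean of -1.81 ± 0.30 (adjusted p = 0.00572). TZP (AT5G43630), a zinc-finger protein of light-regulated growth, read -1.49 and -1.72, a mean of -1.60 ± 0.46 (adjusted p = 0.0454). PMEPCRF, a pectin methylesterase, read -1.15 and -1.66 (adjusted p = 0.0144).

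Tubulin genes, whose transcripts are similar enough to share signal on spotted cDNA, had 1 called lower of 8 measured among 15 listed and 0 higher, with a median of -0.39. That share is near the 7.94% of all targets called lower. TUA6 read -1.22 and -1.18 (adjusted p = 0.0270). The next was TUA2 at -1.21 and -0.55 (adjusted p = 0.0663), and the other 6 (TUA1, TUA3, TUA5, TUB5, TUB6 and TUB9) had means from -0.52 to -0.10.

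DJ1F (AT3G54600), of the DJ-1 protein family, read -1.78 and -2.64, a mean of -2.21 ± 0.35 (adjusted p = 0.00480), which was the largest gap between the arrays among the 65 genes. ECS1 (AT1G31580) read -1.86 and -1.78, but with a standard error of 0.50 (adjusted p = 0.0396). The remaining genes called lower and at least 2-fold on both arrays had means between -1.56 and -1.04: CRT1b, a calreticulin, FAC1, AMP deaminase, ATHSP22.0, a small heat shock protein, bHLH115, a transcription factor of iron uptake, ACS, acetyl-CoA synthetase, VPS2.1, of a membrane-sorting complex, FMO, a flavin monooxygenase, scpl35, a carboxypeptidase-like protein, and CDI, AT1G54010 and DRT100. A further 9 genes with a symbol were past 2-fold on both arrays but missed the threshold, 3 higher and 6 lower. The higher ones were KIN2, UGT87A2 (1.03 and 1.70, adjusted p = 0.113) and TMT1, a sugar transporter of the vacuole (1.31 and 1.26, adjusted p = 0.0764). The lower ones included MTP11, a manganese transporter (-1.98 and -1.31, adjusted p = 0.0540), and GR1, a second glutathione reductase (-1.16 and -1.24, adjusted p = 0.0598).

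Other lists held few or no calls. Of 6 glutathione transferase genes 1 was called lower, GSTU27 at -1.11 and -0.76 (adjusted p = 0.0263), with a median of -0.33 over the list, against 7.94% of all targets called lower. Of 5 peroxidase genes 0 were called, with a median of -0.16, where 13.7% of all targets were called in either direction. Starch metabolism had 0 calls among 2 measured of 21 listed: PWD, which phosphorylates starch, read 0.26 and -0.08, and SBE2.2, a branching enzyme, -0.32 and -0.12. The name search for heat shock proteins found HSP93-III, a chloroplast chaperone at -0.64 and -0.82 (adjusted p = 0.0593), and BRK1, an actin regulator caught through a synonym, at -0.51 and 0.05. The root marker PYK10, a beta-glucosidase of roots, read -0.86 and -1.04 (adjusted p = 0.0621) and was the 1 measured of 4 root markers. No aquaporin, clock, nitrogen assimilation, seed or flower gene of the lists had a named feature, and the name search found 0 ribosomal and 0 proteasome genes.

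The comparison of the arrays with each other asked which genes had different ratios on the dark array and the other. Light is not stated for the other, and with 1 array each the comparison cannot tell light from array. Its plain form contains the dye effect in full, since the channel orders are opposite, so a dye term estimated from the arrays of 6 h and 12 h was taken out. After that, 0 of 11244 targets passed in the limma fit (0%), while 387 had an unadjusted p under 0.05 (3.44%). Without the dye term 2 passed. The test was coarse: the median standard error of the difference was 0.66 on the log2 scale, against 0.29 for the mean of the pair. The absence of calls therefore does not show that the arrays were alike.

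More targets lay past 2-fold on the array without a stated light condition (2405) than on the dark array (1861), and 1217 did so on the former alone against 673 on the latter alone. Among named genes the counts on 1 array alone were 336 and 130. The median absolute deviation was also larger on the former array, 0.522 against 0.427. A difference between conditions therefore cannot be told apart here from a difference in spread between arrays. Of the 1542 called targets, 14 had opposite signs on the arrays, among them 3 named genes and 0 with a symbol or name.

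**Figure D4:**
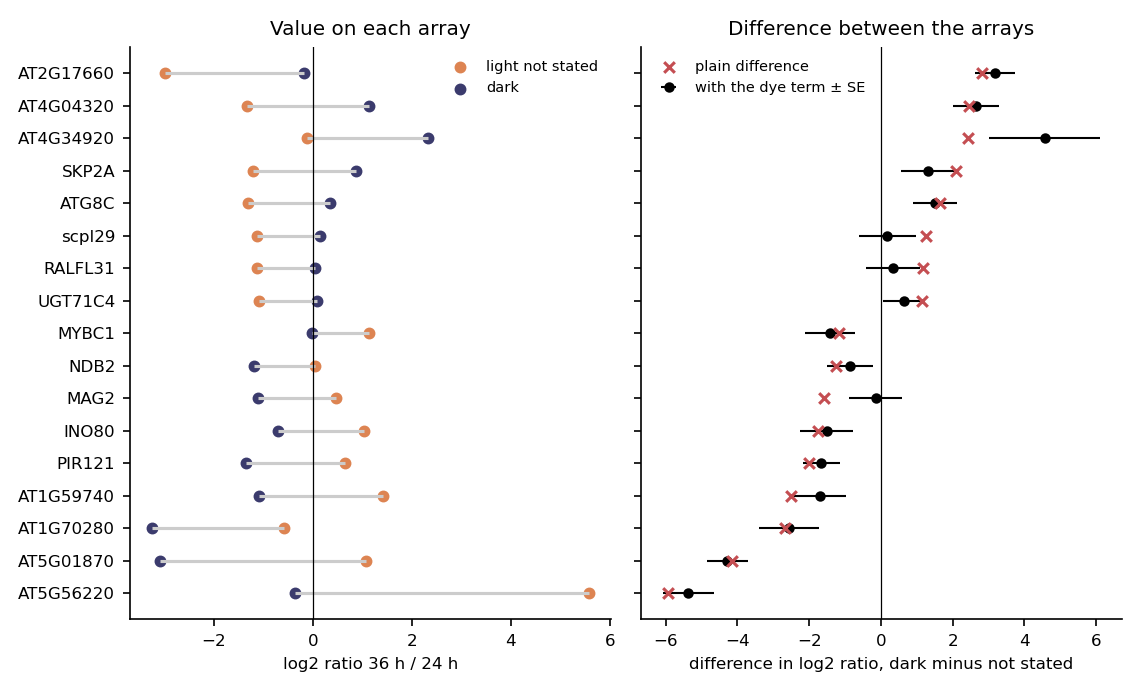
Left, log2 ratio of 36 h over 24 h on each array for the genes whose differences are described below, ordered by the plain difference; right, dark array minus the other, plain (crosses) and with the dye term (points, bars are SE). SKP2A runs from -1.21 to 0.87 and AT5G01870 from 1.07 to -3.09.

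Named genes that were at least 2-fold on either array and of opposite sign on the other numbered 84 of 3686. Of the 581 genes with a symbol or name, 11 were among them. Over all targets the count was 381 of 11246. Higher in the dark array than in the other were ATG8C (-1.30 and 0.34) and SKP2A (-1.21 and 0.87), an F-box protein that targets cell cycle factors. For ATG8C the difference, dark minus the other, was 1.51 ± 0.61 after the dye correction (unadjusted p = 0.0339, adjusted p = 1). For SKP2A it was 1.30 ± 0.73. UGT71C4, RALFL31 and scpl29 had plain differences of 1.16 to 1.27, which the dye correction brought to 0.18 to 0.64.

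Lower in the dark array were 6 genes. PIR121, a subunit of the complex that starts actin branching, read 0.65 and -1.35, a difference of -1.66 ± 0.51 (unadjusted p = 0.00974, adjusted p = 0.943). AT1G59740, listed as the transporter NPF4.3, read 1.42 and -1.08, a difference of -1.70 ± 0.73 (unadjusted p = 0.0433). It was the 1 gene with a symbol or name that was at least 2-fold in opposite directions. INO80, a chromatin remodeller, read 1.04 and -0.70 (-1.51 ± 0.73), and MYBC1, a MYB-like factor, read 1.14 and -0.02 (-1.42 ± 0.69). NDB2, an external NAD(P)H dehydrogenase of mitochondria, read 0.05 and -1.19 (-0.87 ± 0.64). MAG2, of traffic between the endoplasmic reticulum and Golgi, read 0.47 and -1.11, but its difference after the dye correction was -0.14 ± 0.74.

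Including genes without a symbol, 3 of 3686 named genes were at least 2-fold in opposite directions, against 20 of 11246 targets. The 3 were AT1G59740, AT4G04320 (-1.32 and 1.14) and AT5G01870 (1.07 and -3.09). The difference was 2.65 ± 0.64 for AT4G04320 (adjusted p = 0.581) and -4.28 ± 0.57 for AT5G01870 (adjusted p = 0.0939). The largest plain difference of a named gene, chosen after the values were seen, was in AT5G56220, at 5.58 and -0.36 (-5.37 ± 0.71 after the dye correction, adjusted p = 0.0939). Its mean of 2.61 was called (adjusted p = 0.00132) although the arrays disagree in sign, so the call of a mean alone does not show that both arrays moved. Chosen in the same way, AT2G17660 read -2.99 and -0.17, AT1G70280 -0.58 and -3.25, and AT4G34920 -0.11 and 2.32, and the smallest adjusted p of their differences was 0.260, for AT2G17660. AT5G01870 and AT5G56220 were the pair that passed without the dye term, each at adjusted p = 0.0403.

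The pair was then set against 12 h over 0 h, the same span a day earlier, which had 5 arrays. In the limma fit 1121 of 11244 targets differed (9.97%), 491 higher in the pair (4.37%) and 630 lower (5.6%). An unadjusted p under 0.05 was found for 26.6%. Of the 65 genes 48 differed. They were chosen on the pair, which enters this contrast, so that count adds nothing to their own values. Array 1 of 12 h against 0 h stood apart, with an SD of 0.382 against 0.694 to 0.799 on the other 4 and an r of -0.050 to 0.069 with them. Without it 1300 targets differed. The count fell to 599, 705 and 602 without array 3, 4 or 5, to 146 without the dark array and to 184 without the array of unstated light.

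AKINBETA1 had ratios of opposite sign over these spans: its ratio on the 5 arrays of 12 h over 0 h was -0.11, -1.24, -1.71, -1.51 and -2.11, against 1.69 and 1.92 in the pair. The difference was 3.20 ± 0.42 (adjusted p = 0.00409). ECS1 ran the other way, at -0.08, 0.24, 1.72, 1.91 and 1.92 over 12 h, with a difference of -3.01 ± 0.59 (adjusted p = 0.0155). TUA6, likewise, was between 0.29 and 1.57 over 12 h, and differed by -2.22 ± 0.35 (adjusted p = 0.00703). For each of these 3 genes the values of the pair lay outside the range of the 5 arrays. AKINBETA1 and ECS1 were chosen by the size of this difference and TUA6 after its values were seen. Values outside that range are therefore no separate support.

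Over 12 h the genes of branched-chain amino acid breakdown had a median ratio of -0.32, and the 5 arrays for IVD ran from -2.04 to -0.03. MCCA lay between -0.82 and -0.04 on the 5 arrays, and the pair exceeded 12 h by 3.77 ± 0.38 (adjusted p = 0.00278). The excess was 3.88 ± 0.46 for IVD, 3.90 ± 0.34 for SIS and 3.29 ± 0.29 for MCCB. Among chloroplast genes Cpn60beta3 lay between -0.41 and 0.73 over 12 h, a difference of -2.77 ± 0.31 (adjusted p = 0.00278). CaS was already between -1.20 and -0.30 over 12 h and still differed, by -2.48 ± 0.31 (adjusted p = 0.00370).

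For other genes a difference from 12 h was not detected. TZP had a 12 h ratio of -1.53 and differed from it by -0.08 ± 0.54 (adjusted p = 0.949). RCA had -1.11 over 12 h (difference -0.37 ± 0.43, adjusted p = 0.637) and COR47 had 1.08 (0.55 ± 0.42, adjusted p = 0.442). CCL had 1.03 (0.80 ± 0.49, adjusted p = 0.330) and PDC2 had 0.89 (1.0 ± 0.60, adjusted p = 0.323). The standard errors leave room for differences of 1 log2 unit or more in these genes.

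The span from 48 to 60 h, a further day on, was measured on 1 array of plants moved to continuous light. The pair differed from it in 252 of 11068 targets (2.28%), 101 higher (0.913%) and 151 lower (1.36%). An unadjusted p under 0.05 was found for 17.5%. Of the 65 genes 18 differed, again a count that their choice affects. Without the dark array 24 targets differed, and without the array of unstated light 124. Leaving out either 6 h array gave 119, and of the 12 h arrays, leaving out array 3 gave 120 and array 5 gave 138. The single array is assumed to vary like the others, and whether light, the hour or the array sets the difference cannot be told apart.

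Calvin cycle genes were on opposite sides of 0 in these comparisons. The 60 h array read 0.74 for SBPASE, 0.87 for PRK and 0.86 for RCA. The pair differed from it by -3.23 ± 0.45 for SBPASE (adjusted p = 0.0134) and by -2.77 ± 0.50 for PRK (adjusted p = 0.0250), while RCA did not pass at -2.20 ± 0.66 (adjusted p = 0.117). EXO read 0.99 on the 60 h array and GR 1.23, with differences of -3.71 ± 0.64 (adjusted p = 0.0230) and -3.39 ± 0.71 (adjusted p = 0.0426). CaS read 0.48, a difference of -3.60 ± 0.47 (adjusted p = 0.0109). These genes were thus lower at the later time in the pair and above 0 on the array in continuous light.

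Amino acid breakdown genes were near or below 0 on the 60 h array. MCCA read -0.74 and ALDH6B2 -0.55, and the pair exceeded them by 4.11 ± 0.59 (adjusted p = 0.0138) and 3.44 ± 0.52 (adjusted p = 0.0175). AT4G33150 and ALDH7B4 differed by 2.90 each (adjusted p = 0.0239 and 0.0191). AKINBETA1, at -0.15, did not pass against this array (2.26 ± 0.65, adjusted p = 0.102).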

How the data were processed

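The data are log2 ratios, 1 per feature and array, as deposited by the authors. Per the labels, total RNA of 2 times was hybridised to each array, and arrays were read with ScanAlyze, version 2.44 for both arrays of 36 h against 24 h and 2.33, 2.42 or 2.44 for the others. Background correction, normalisation and the genome build are not given in the sources used here, so no positions are printed. Log base 2 was checked on the values: exactly -1 occurred 159 times, against a mean of 20.4 at neighbouring steps.

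The median of each array was subtracted, and by the channel labels each ratio was expressed as the later time over the earlier. Of 12800 features, 5197 had a single annotated gene, 214 several and 7389 were unnamed here. The TAIR10.1 table matched 5190 of the 5197. Features of a gene were averaged. Targets with values on at least 10 of 13 arrays were fitted with limma 3.58.1 in R 4.3.3 (lmFit, eBayes), where every time comparison had its own coefficient and a single term stood for dye. This leaves 5 residual degrees of freedom, which come from the repeat arrays of 6 h, 12 h and 18 h against 0 h. All p-values are from this fit, and adjusted p-values are Benjamini-Hochberg over all targets tested in a comparison, called under 0.05. Errors after ± are standard errors.

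The genes named were the 15 of largest mean change in either direction, taken from genes that were called, carried a symbol or name and were at least 2-fold on both arrays, the largest differences between arrays (up to 8 each way), the 5 largest differences each way from 12 h and 60 h, and all measured list members. Exceptions are identified as such, and further genes of the 65 and those set beside 12 h or 60 h were added after their values were seen. The members, lists and rules were chosen with earlier results of these data known. Alternatives varied the dye term, scaling, centring, missing values, averaging, fold limit and the arrays included.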

Additional observations from a re-analysis of the deposited data

Results flagged for a closer look

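The genes here were singled out because the change from 24 to 36 h differed, in a test of the difference itself, from the change over the same span of another day. Each value is the mean of the pair minus the other log2 ratio, and no explanation was tested.

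Against 12 h over 0 h, the largest positive differences among called genes with a symbol or name were those of SIS (3.90), IVD (3.88), MCCA (3.77), MCCB (3.29) and AKINBETA1 (3.20). The largest negative differences were those of ECS1 (-3.01), Cpn60beta3 (-2.77), DJ1F (-2.70), CaS (-2.48) and NdhN (-2.36).

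Against 60 h over 48 h, the largest positive differences were those of MCCA (4.11), ALDH6B2 (3.44), SIS (3.15), AT4G33150 (2.90) and ALDH7B4 (2.90). The largest negative differences were those of EXO (-3.71), CaS (-3.60), GR (-3.39), SBPASE (-3.23) and DJ1F (-3.19). MCCA, SIS, CaS and DJ1F appear in both sets. Both differences contain the same mean of the pair, so an appearance in both sets is not a second, separate result.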

How the results depend on the processing

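Calls of the pair, 1542 in all, numbered 377 with arrays scaled to one spread and 670 with array 2 of 6 h turned to the order in its title. They ranged from 177 to 1695 when 1 array was left out, with the lowest counts on leaving out the dark array (177) or the other array (245). With the 2 arrays alone there were 1820 calls, 1335 of them shared. Without centring 51.2% of calls were higher, against 42.1%. The difference between the arrays gave 0 calls, 2 without the dye term, and 0 to 0 with 1 array left out. Against 12 h, 1121 targets differed, 238 with arrays scaled, 150 with the arrays of ScanAlyze 2.33 at 12 h averaged, 462 with the 6 h array turned, and 146 to 1300 with 1 array left out. Against 60 h the count of 252 became 158 without the dye term, 151 with a separate dye term for ScanAlyze 2.33, 10 with the averaged arrays, 32 with the 6 h array turned, and 24 to 365 with 1 array left out. Named genes at least 2-fold the same way on both arrays, 299, numbered 692 at 1.5-fold, 86 at 3-fold, 492 with features not averaged and 151 with arrays scaled. Without centring they numbered 287, 151 higher and 136 lower, against 135 and 164. The cause of these shifts was not tested. Of the 30 genes of largest change, 10 lost their call with arrays scaled, 7 with the 6 h array turned, and 15 or 16 with either array of the pair alone, and at most 3 under any other setting. None of the 30 reversed. No paired analysis was possible because each condition of the pair has 1 array.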
